A study of Mus musculus with 8 samples.

Results

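The Zfp genes described here are the mouse zinc finger protein genes named Zfp followed by digits alone that were expressed in both cell lines of a study of TCF-1 and the folding of the genome. Members were chosen by measured levels: a mean CPM (a gene's reads as a proportion of all reads in genes, scaled to a common library size) of at least 1 in each of the 4 groups, and 244 of the 30731 genes found in the tables of both lines met this rule. Another 122 Zfp genes in both tables fell under that level in at least 1 group, 61 of them in Scid.adh only, 6 in 3T3 only and 55 in both lines, and 8 more were in 1 table only. The members closest above the level, by their lowest group mean, were Zfp963 (1.04 CPM), Zfp9 (1.09 CPM) and Zfp651 (1.13 CPM), and the closest below were Zfp867 (0.976 CPM), Zfp78 (0.931 CPM) and Zfp112 (0.863 CPM). The higher level of many of these genes in the Scid.adh knockout was also in view when the family was chosen. That comparison is therefore a description, and no finding rests on it. Its calls at an adjusted p under 0.05, and whether they held when a library was left out, are part of that description. Its p-values are not printed.

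Most C2H2 zinc finger proteins read DNA with tandem fingers, each held together by a zinc ion, and a large subset carries a KRAB box ahead of the fingers. The KRAB box recruits the corepressor TRIM28 (also KAP1) and, with it, the histone methyltransferase SETDB1, and many KRAB proteins silence endogenous retroviruses or guard imprinted regions. Their genes lie in clusters that grew by tandem duplication. TCF-1, encoded by Tcf7, is an HMG-box factor that binds the core CTTTG, and mice without it make fewer T cells.

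RNA was sequenced from 8 libraries, 2 in each of 4 groups. Scid.adh, a thymic lymphoma line used as a model of DN3 thymocytes (early precursors bound to become T cells), carried either a Tcf7-/- genotype (the TCF-1 knockout) or, as wild type, an empty vector. NIH-3T3, an embryonic fibroblast line, either had TCF-1 induced or was wild type and untreated, and all 4 of its file headers name Cas9 and an empty vector construct at 72 hours, while doxycycline is named for the induced libraries alone. The effects of doxycycline and of TCF-1 therefore cannot be told apart in 3T3. Nothing in the labels tells separate cultures from repeated libraries or gives the number of clones. The p-values therefore measure the variation among these libraries only, and that variation may be technical.

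Gene counts summed to 7740198 and 8217933 in the knockout libraries, 10392402 and 9847239 with the empty vector, 16857868 and 13850213 in induced 3T3 and 16174002 and 17523677 in normal 3T3. Tcf7 stood at 645 and 623 CPM in the knockout libraries, against 1315 and 1321 CPM with the empty vector, so its transcript remained in the cells labelled knockout. It stood at 944 and 969 CPM in induced 3T3, against 14.4 and 14.6 CPM in normal 3T3. Of 12 T-lineage markers, 11 were at 1 CPM or more in both Scid.adh groups, and all 8 fibroblast markers were in both 3T3 groups. The summed fibroblast markers were at 11.1 and 10.1 CPM in the knockout and at 116 and 120 CPM with the empty vector. By number the order was reversed, with 4 of the 8 at 1 CPM or more in the knockout and 1 with the empty vector. That 1 marker made up most of the empty-vector sum, and Col3a1, Postn and Lum were at 0 there. The part of these markers in the results was not tested. The knockout libraries had 20406 and 20463 genes with a count, against 18084 and 18041 with the empty vector.

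Promoter windows were searched for short motifs because the data came from cells with altered levels of a DNA-binding factor. RefSeq promoters (GRCm38.p6, from 250 bases before to 50 after the start) were given for 202 of the 244 members, in 252 windows. The 3 windows printed here belong to members that were higher in the knockout and kept that call whichever single library was left out. They are Zfp772 (chr7:7209949-7210248, minus strand), Zfp60 (chr7:27731159-27731458, plus strand) and Zfp128 (chr7:12880928-12881227, plus strand). Capitals mark matches, on either strand, to the TCF/LEF core (CTTTGA or CTTTGT), an ETS motif (CCGGAAGT), an NRF1 motif (GCGCATGC), YY1 motifs (AAGATGGC or CCATCTTTG) and a ZNF143 motif (ACTACAA).
Zfp772: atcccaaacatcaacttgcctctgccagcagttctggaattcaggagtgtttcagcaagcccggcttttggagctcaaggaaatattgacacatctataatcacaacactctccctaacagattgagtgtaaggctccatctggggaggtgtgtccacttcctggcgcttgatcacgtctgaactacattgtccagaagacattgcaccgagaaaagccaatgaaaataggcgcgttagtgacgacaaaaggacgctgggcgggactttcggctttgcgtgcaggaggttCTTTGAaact
Zfp60: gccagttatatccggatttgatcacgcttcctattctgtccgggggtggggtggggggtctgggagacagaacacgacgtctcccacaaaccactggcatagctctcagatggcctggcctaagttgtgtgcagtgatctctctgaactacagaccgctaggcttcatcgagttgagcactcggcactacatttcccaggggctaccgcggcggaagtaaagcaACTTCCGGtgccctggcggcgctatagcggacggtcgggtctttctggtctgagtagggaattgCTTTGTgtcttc
Zfp128: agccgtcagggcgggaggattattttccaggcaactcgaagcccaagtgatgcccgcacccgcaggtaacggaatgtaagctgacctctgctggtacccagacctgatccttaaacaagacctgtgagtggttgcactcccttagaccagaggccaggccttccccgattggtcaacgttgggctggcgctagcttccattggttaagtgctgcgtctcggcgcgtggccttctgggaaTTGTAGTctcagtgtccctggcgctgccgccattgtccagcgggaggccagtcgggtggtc
Zfp772 held 1 TCF/LEF core and no other match. Zfp60 held 1 ETS match and 1 TCF/LEF core, and Zfp128 held 1 ZNF143 match and no core. The TCF/LEF core was in 77 of the 252 member windows (30.6%), against 31.2% of all 32851 promoter windows and 22.6% of the windows of all genes that passed the same level rule. Among windows of members higher in the knockout it was in 25 of 82 (30.5%), against 51 of 165 (30.9%) for members without a call there. The median GC content was 56% in member windows, 52.7% in all windows and 61.3% in windows of genes that passed the level rule. The part of base content in these shares was not tested. The ETS motif was in 12.3% of member windows, 3.89% of all windows and 9.63% of windows of genes that passed the level rule. The NRF1 motif was in 5.95% of member windows, 2.71% of all windows and 5.98% of windows of genes that passed the level rule. The YY1 motifs were in 5.95%, 2.96% and 5.37% of the same sets, and the ZNF143 motif in 5.56%, 3.24% and 4.58%. For these 3 motifs the member share is near that of other genes at such levels. A 3′ part of the second YY1 motif can overlap the TCF/LEF core, and a match is only a run of letters and not a bound site.

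The members were a mixed family by sequence. A KRAB box, taken as at least 7 of 9 conserved letters in the translated coding sequence, was matched in 123 members and not in the other 121. Only stretches holding both the W and the Y among these letters were scored, so a box lacking either counts as no match. Members without KRAB are those without this match, and some of them may carry a diverged box. KRAB members had a median of 12 C2H2 fingers and the others 8, with a range over all members of 0 to 36 (Zfp142). The 5 members without a C2H2 match were Zfp36, whose 2 fingers are of the CCCH type that binds RNA, and Zfp703, Zfp330, Zfp503 and Zfp839. The longest transcripts of KRAB members had a median GC content of 42.0%, and those of the other members 49.4%. Between them 21 genomic clusters, defined as at least 3 members with gene starts no more than 500 kb apart, held 123 members, 83 of them with a KRAB box. Exons of 81 members overlapped those of another gene, and neighbouring paralogs can share reads, so single values in such places are uncertain. Among the members named here such an overlap holds for Zfp36, Zfp54, Zfp91, Zfp106, Zfp142, Zfp335, Zfp608, Zfp651, Zfp703 and Zfp704.

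Per kilobase of exon, most members were at modest levels. The median was 5.39 CPM per kb in the knockout, 4.48 with the empty vector, 4.05 in induced 3T3 and 4.05 in normal 3T3. In Scid.adh the highest were Zfp207, which binds microtubules and the spindle checkpoint protein BUB3 (49.7 CPM per kb in the knockout and 46.3 with the empty vector), Zfp91, an E3 ubiquitin ligase of noncanonical NF-kB signalling (48.0 and 47.0), and Zfp106, an RNA-binding protein (44.6 and 56.0). In 3T3 the highest was Zfp36, known as tristetraprolin, which speeds the decay of AU-rich mRNAs, at 51.5 CPM per kb in induced and 55.0 in normal cells. The same gene was near the lower limit in Scid.adh, at 0.45 CPM per kb in the knockout and 0.48 with the empty vector.

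The comparison of the knockout with the empty vector asks what losing TCF-1 does to transcripts in a DN3-like cell. Of the 244 members, 69 were called higher and 9 lower in the knockout (edgeR quasi-likelihood test, adjusted p under 0.05 over 11941 genes), where 15.6% of all tested genes were called higher and 15.9% lower (31.5% in either direction). The median log2 fold change was 0.23 over the members and -0.004 over all tested genes, and 175 members had a positive value. Both knockout libraries stood above both empty-vector libraries for 136 members and below both for 38, where the shares over all tested genes were 32.8% and 33.9%. Summed, the members took 1.151% and 1.182% of gene counts in the knockout libraries, against 0.9962% and 0.9945% with the empty vector. With DESeq2 the members called were 29 higher and 5 lower, and with upper-quartile scaling 100 higher and 4 lower.

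Genes of low level as a whole were higher in the knockout, so each member was also set against genes of like level. Tested genes were put into 10 equal classes by mean CPM. Over all genes the median log2 fold change was 1.06 in the lowest class, 0.48 in the second and 0.19 in the third, and -0.13 in the highest. Members above the median of their own class numbered 176 of 244, and the median difference from it was 0.24. In the fourth class (8.22 to 16.95 CPM), which held the most members, their median was 0.27 against 0.04 over all genes, and 42 of 52 stood above it. In the lowest class, 0 of its 3 members stood above the class median. In the second class 10 of 17 did. Members had to reach 1 CPM in every group, and the other genes of a class did not. That rule limits how far a member of the lowest classes can rise. The low classes therefore do not compare genes chosen alike. Among the 9843 tested genes that passed the level rule of the members, 10.4% were called higher and 17.4% lower, with a median of -0.04. Whether the depth or the number of genes with a count has a part in these values was not tested.

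**Figure D1:**
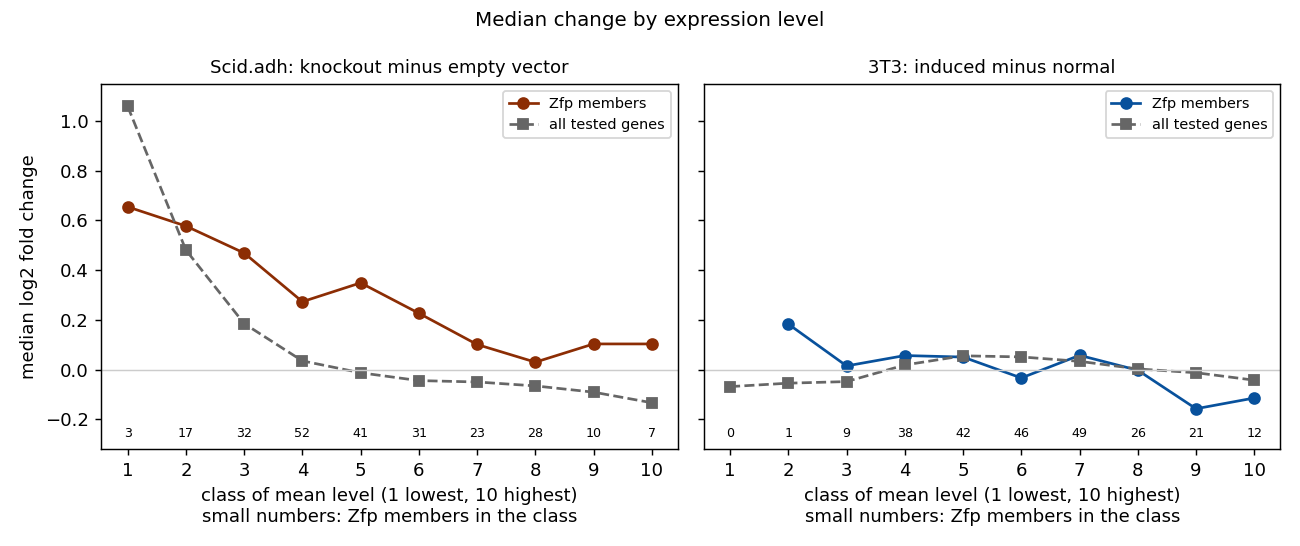
Median log2 fold change (vertical axis) of the Zfp members (circles) and of all tested genes (squares) in 10 classes of mean level from lowest to highest, for knockout minus empty vector in Scid.adh (left) and induced minus normal in 3T3 (right), with the number of members of each class below. In Scid.adh the members lie above all genes from the second class to the tenth and below them in the first; in 3T3 the lines cross.

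KRAB members and the others differed in their shares. Of the 123 KRAB members, 41 were called higher and 1 lower (Zfp568), with a median log2 fold change of 0.32, and 98 stood above the median of their level class. Of the 121 members without KRAB, 28 were called higher and 8 lower, with a median of 0.09, and 78 stood above their class median. The KRAB members' median CPM was 18.1 and 18.7 in the knockout libraries, against 14.2 and 13.7 with the empty vector. By number of fingers, the median was 0.01 for the 39 members with 0 to 4 fingers, 0.18 for the 72 with 5 to 9, 0.29 for the 78 with 10 to 14 and 0.33 for the 55 with 15 or more. The KRAB box, the finger number, GC content and level go together, and the differences between these groups were not tested. After the trend of log2 fold change with GC content over the tested genes was taken out, the KRAB median was 0.25. That trend came from these same fold changes, so the step cannot tell a technical effect of GC content from one of the knockout.

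Zinc finger genes of other names were set beside the members. The 35 KRAB C2H2 genes of other names held 12 called higher and 0 lower, with a median log2 fold change of 0.41. The 128 C2H2 genes of other names without KRAB held 27 higher and 10 lower, with a median of 0.06. Both sets were defined with values in view. The 29 Zbtb genes, whose products pair fingers with a BTB domain, held 7 higher and 0 lower, with a median of 0.12. Above the median of their level class stood 29 of 35, 79 of 128 and 21 of 29 in the same order. Their median differences from it were 0.23, 0.08 and 0.10, against 0.30 for KRAB members.

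**Figure D2:**
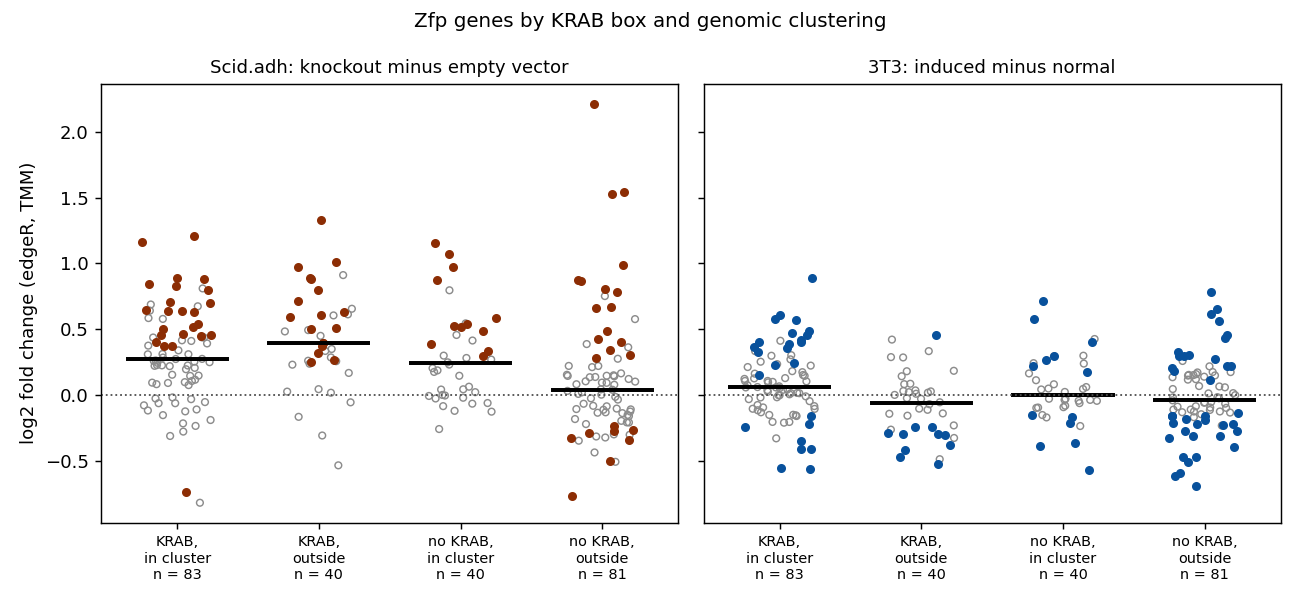
Log2 fold change (vertical axis) of each member by KRAB box and place in or outside a genomic cluster, for knockout minus empty vector (left) and induced minus normal 3T3 (right). Filled points were called at an adjusted p under 0.05 and open points were not. Bars are group medians and the dotted line is the median of all tested genes. In Scid.adh every group has a median above the line, from 0.04 (no KRAB, outside) to 0.39 (KRAB, outside).

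The largest rise was that of Zfp608, a gene known in mouse thymocytes to repress Rag1 and Rag2, whose proteins cut antigen receptor genes. It stood at 10.9 and 9.35 CPM in the knockout libraries, against 2.01 and 2.34 CPM with the empty vector (log2 fold change 2.21, SE 0.27). Both knockout libraries were above both others, and its exons overlap those of the opposite-strand gene Gm26742. Its paralog Zfp609, known to act against Zfp608 in thymocytes and as a partner of Integrator, was called lower, at 124 and 143 CPM in the knockout and 160 and 163 CPM with the empty vector (log2 fold change -0.27, SE 0.08). The libraries did not overlap, but the call was lost without empty-vector library 1 (-0.30) or 2 (-0.27), after a correction for GC content (-0.18) or level (-0.18), and under upper-quartile scaling (-0.20). In 3T3, Zfp608 was at 55.3 and 50.9 CPM in induced and 43.3 and 43.7 CPM in normal cells (log2 fold change 0.29, SE 0.06, edgeR adjusted p = 0.000182), and rose there too.

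Zfp503, a member of the NET family of transcriptional repressors, was at 5.94 and 5.45 CPM in the knockout and at 2.31 and 1.60 CPM with the empty vector (log2 fold change 1.53, SE 0.31). Its close relative Zfp703 did not pass, at 12.2 and 10.4 CPM in the knockout and 14.6 and 14.3 CPM with the empty vector (log2 fold change -0.35, SE 0.17). In both genes the libraries of the groups did not overlap, with opposite signs. In 3T3 both passed the test upward. Zfp703 rose to 39.7 and 34.6 CPM in induced cells, against 24.59 and 25.96 CPM in normal cells (log2 fold change 0.56, SE 0.08, edgeR adjusted p = 6.37e-08). Zfp503 rose by less there, at 90.4 and 91.0 CPM in induced and 79.2 and 77.9 CPM in normal cells (log2 fold change 0.21, SE 0.05, edgeR adjusted p = 0.000834), and 0.13 after the GC correction.

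Among members without KRAB, the second largest rise was that of Zfp651, a member just above the level rule. It was at 3.15 and 3.79 CPM in the knockout and 1.61 and 0.745 CPM with the empty vector (log2 fold change 1.54, SE 0.41). Its call was lost without empty-vector library 2 (1.09), with DESeq2 (1.51) or after the correction for level (0.97).

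The largest rises of KRAB members were those of the following genes. Zfp772, whose promoter is printed above, was at 4.49 and 5.92 CPM in the knockout and 2.21 and 1.92 CPM with the empty vector (log2 fold change 1.33, SE 0.32). Zfp54 was at 6.43 and 9.35 CPM in the knockout and 4.02 and 2.77 CPM with the empty vector (1.21, SE 0.29). Zfp128 was at 8.73 and 11.01 CPM in the knockout and 3.92 and 4.90 CPM with the empty vector (1.16, SE 0.24). None of the 3 had overlapping groups, but all are low, and Zfp772 was no longer called with DESeq2 (1.29) or after a correction for level (0.92). At higher counts, Zfp60 was at 68.3 and 64.0 CPM in the knockout and 37.3 and 44.0 CPM with the empty vector (0.70, SE 0.10).

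Several higher members have a known partner or process. Zfp277, a partner of Polycomb proteins, was at 48.4 and 38.6 CPM in the knockout and 24.0 and 23.4 CPM with the empty vector (log2 fold change 0.87, SE 0.13). Zfp318, which lets B cells make IgD beside IgM by controlling their transcript choice, was at 36.0 and 42.4 CPM in the knockout and 28.4 and 27.6 CPM with the empty vector (0.49, SE 0.12), and was not called with DESeq2 (0.44). Zfp445, a KRAB protein that protects imprinted regions, was at 176 and 202 CPM in the knockout and 150 and 153 CPM with the empty vector (0.32, SE 0.07). Both knockout libraries were above the others for each of these, and the Zfp445 call was lost without empty-vector library 1 (0.30). Zfp335, which mice need for T cell maturation, did not pass, at 42.4 and 42.6 CPM in the knockout and 50.8 and 46.6 CPM with the empty vector (-0.20, SE 0.10). Neither did the retrovirus-silencing KRAB gene Zfp809, at 38.6 and 37.1 CPM in the knockout and 32.2 and 33.4 CPM with the empty vector (0.21, SE 0.11).

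The falls were few. Zfp516, which drives Ucp1 in mouse brown fat, was at 15.16 and 15.98 CPM in the knockout and 27.93 and 25.03 CPM with the empty vector (log2 fold change -0.77, SE 0.14). Zfp568, a KRAB protein that represses a placental promoter of Igf2 in mouse embryos, was at 55.2 and 71.7 CPM in the knockout and 110 and 102 CPM with the empty vector (-0.74, SE 0.11). Zfp704 was at 172 and 201 CPM in the knockout and 257 and 272 CPM with the empty vector (-0.50, SE 0.08). All 3 had both knockout libraries below both empty-vector ones and kept their call whichever library was left out. Zfp568 was the KRAB gene called lower, and it lies in a cluster whose other members did not share one direction.

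**Figure D3:**
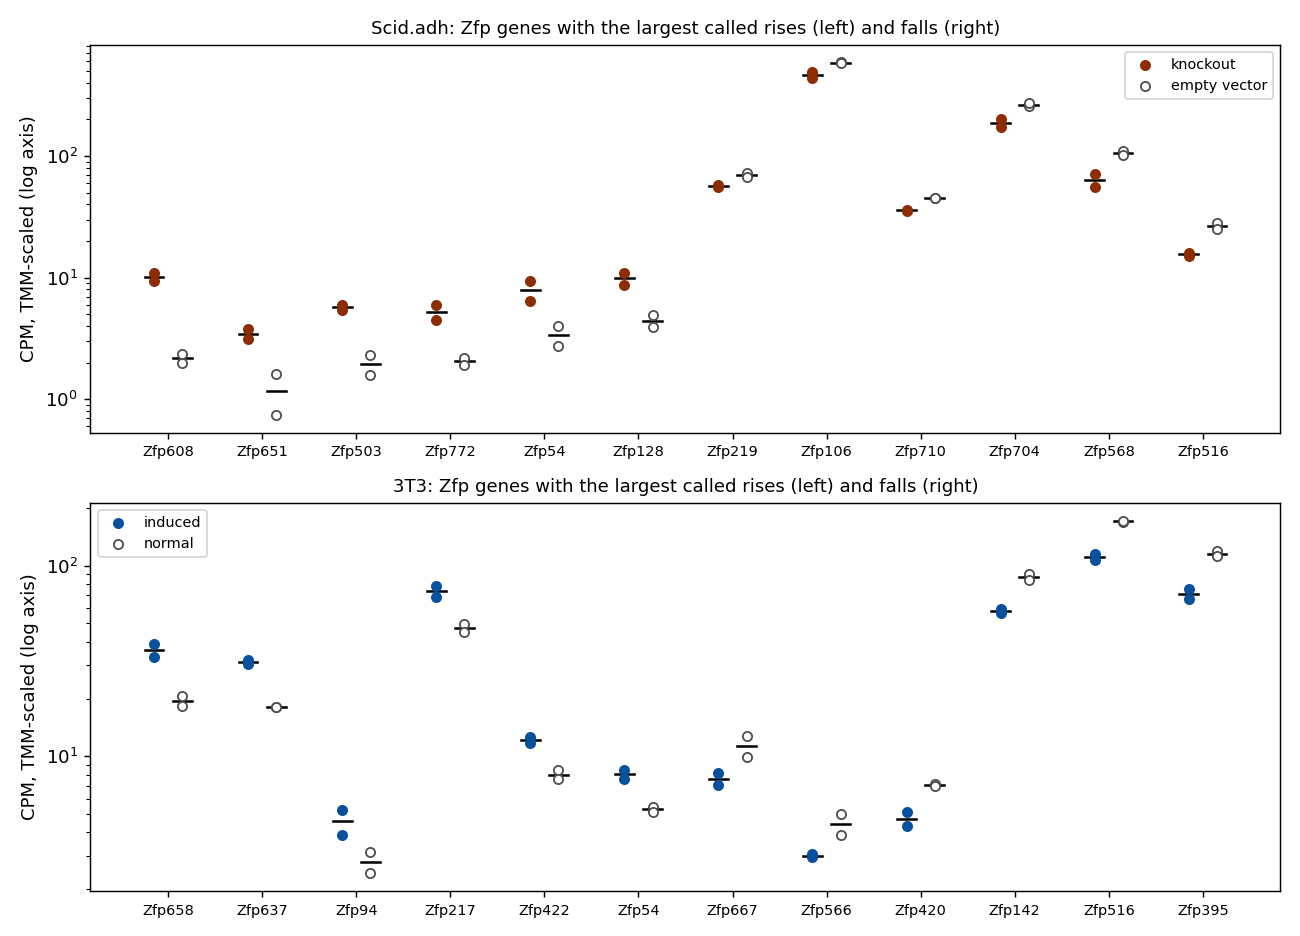
CPM (log axis, TMM-scaled) in each library of the called members with the 6 largest rises and the 6 largest falls and no overlap between groups, in Scid.adh (top) and 3T3 (bottom). Filled points are the knockout or induced libraries, open points the empty-vector or normal ones, and bars the means; Zfp608 stands at 10.9 and 9.35 CPM in the knockout, against 2.01 and 2.34 CPM with the empty vector.

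The genomic clusters differed in their values. Members in clusters were called higher in 35 of 123 cases and lower in 1, with a median log2 fold change of 0.27. Members outside them were called higher in 34 and lower in 8 of 121, with a median of 0.15. Among KRAB members the order was reversed. In clusters 23 of 83 were called higher, with a median of 0.27, and outside 18 of 40, with a median of 0.39. Members without KRAB had medians of 0.24 in clusters and 0.04 outside. These differences were not tested. A cluster of 11 members on chromosome 17 (21008903 to 22377281, GRCm38), 10 of them with KRAB, had a positive value in all 11, with 6 called higher, a median of 0.58 and a range of 0.27 (Zfp51) to 1.21 (Zfp54). A cluster of 12 on chromosome 13 (67038596 to 67827002) had 11 positive values, 5 called higher and a median of 0.56. Its highest member, Zfp273 (0.87), lost its call without empty-vector library 2 (0.69) or knockout library 1 (0.66), with DESeq2 (0.83) or after the correction for level (0.65). A second chromosome 17 cluster of 10 (32765496 to 33631779) had 9 positive values, 4 called higher and a median of 0.34. In it Zfp81 was at 56.5 and 57.8 CPM in the knockout, against 39.6 and 34.1 CPM with the empty vector. Some calls in each of these chromosome 17 clusters were lost with a library left out or with DESeq2, whereas Zfp81 kept its call.

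Of the smaller clusters, 1 of 6 members on chromosome 7 (27731389 to 28380253) had a median of 0.54 with 2 called higher, and those of 3 members on chromosomes 18 and 5 had medians of 0.49 and 0.45 with all 3 members called higher in each. The Zfp35 call on chromosome 18 was lost without empty-vector library 1 (0.15), with DESeq2, after the GC correction or without the filter on low counts. The Zfp113 call on chromosome 5 was lost without empty-vector library 2 (0.34) or with DESeq2. The medians of the remaining clusters ran from -0.07 to 0.27, and some lay near the value of all genes. The cluster of 14 on chromosome 7 (29768552 to 30169750), 11 of them with KRAB, had 8 positive values, 3 called higher and 1 lower, with a median of 0.07 and a range of -0.74 (Zfp568) to 1.07 (Zfp420). The Zfp420 call was lost without empty-vector library 2 (0.61), with DESeq2 (1.04), after the correction for level (0.72) or without the filter on low counts (1.01). The cluster of 6 on chromosome 6 (47835661 to 48086593), 5 of them with KRAB and including Zfp746 (PARIS), had 2 positive values, 0 calls and a median of -0.07. The cluster of 10 on the far part of chromosome 7 (127233061 to 127885996) had 6 positive values, 2 called higher and a median of 0.10. Clustered genes share a neighbourhood and part of their sequence, so they are not independent, and the clusters were not tested against each other.

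**Figure D4:**
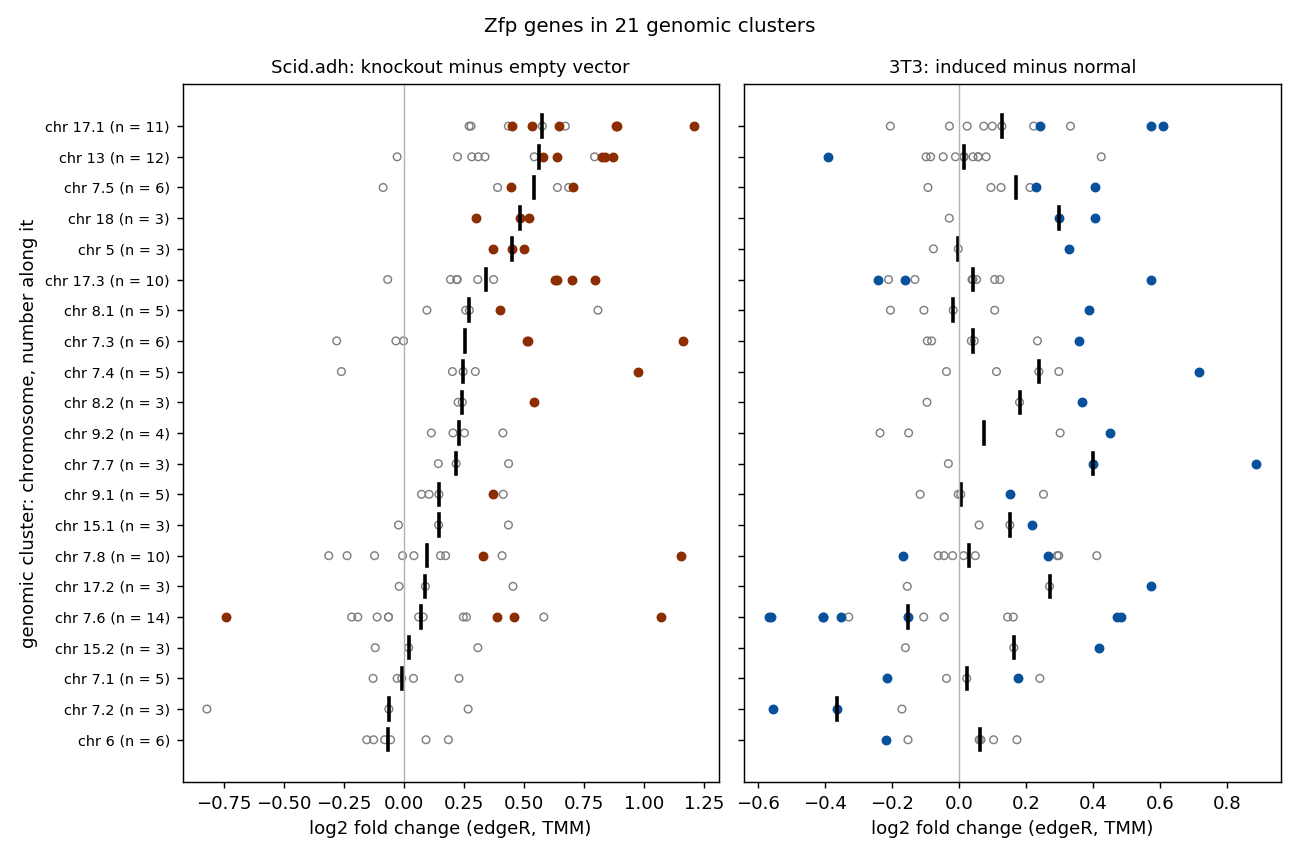
Log2 fold change (horizontal axis) of each member of the 21 genomic clusters, ordered from top to bottom by their median in Scid.adh, for knockout minus empty vector (left) and induced minus normal 3T3 (right, on its own scale). Filled points were called, open points were not, and black bars are medians, from 0.58 in the first chromosome 17 cluster to -0.07 in the chromosome 6 cluster in Scid.adh.

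Genes of the proteins through which KRAB boxes act were measured beside the members. Of 29 such cofactor genes, 2 were called higher (6.90%) and 5 lower (17.2%) in the knockout, with a median of -0.08. Over all tested genes the shares were 15.6% and 15.9%. The cofactor genes were at a high level, with a median of 215 CPM. Against genes of like level, 17 of the 29 stood above the median of their class, with a median difference of 0.03. Trim28 was at 774 and 758 CPM in the knockout and 833 and 838 CPM with the empty vector (log2 fold change -0.13, SE 0.06), and Setdb1 was at 132 and 131 CPM in the knockout and 142 and 148 CPM with the empty vector (-0.14, SE 0.07), neither past the test. Atf7ip, which stabilises SETDB1, was at 280 and 360 CPM in the knockout and 179 and 182 CPM with the empty vector (0.82, SE 0.10). Atf7ip and Mphosph8 (0.47) were the 2 called higher. The 5 called lower were H3f3a (-0.48), Sumo2 (-0.45), Chd4 (-0.43), Dnmt1 (-0.38) and Hdac1 (-0.38). The cofactor count was 14 without knockout library 1 and 15 without knockout library 2.

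The comparison of induced with normal 3T3 asks how fibroblasts, which lack a T-lineage program, respond to TCF-1. Here 41 members were called higher and 46 lower, where 18.5% of all 18185 tested genes were called higher and 18.3% lower (36.8% in either direction). These shares, 16.8% and 18.9%, are near the background. The median log2 fold change was 0.01, 114 of 244 members stood above the median of their level class, and the members took 0.852% and 0.855% of gene counts in the induced libraries and 0.870% and 0.881% in the normal ones. Both induced libraries were above both normal ones for 79 members and below both for 76, where the shares over all tested genes were 32.4% and 32.7%. The calls were 26 higher and 26 lower without normal library 1, 29 and 26 without normal library 2, and 17 and 17 with DESeq2.

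In 3T3, KRAB members in clusters were called higher in 17 of 83 cases and lower in 8, with a median log2 fold change of 0.06, and KRAB members outside clusters in 1 and 10 of 40, with a median of -0.06. The difference between them was not tested. The 14-member chromosome 7 cluster had 2 called higher and 6 lower, with a median of -0.15. The first chromosome 17 cluster had 3 called higher and 0 lower, with a median of 0.13. Of the 29 cofactor genes, 10 were called higher (34.5%) and 7 lower (24.1%) in induced 3T3, with a median of 0.05. Over all tested genes the shares were 18.5% and 18.3%. Against genes of like level, 16 of the 29 stood above the median of their class. With DESeq2 5 were called higher and 3 lower, and the cofactor count also varied with the library left out. The difference of the cofactor shares from those of all genes was not tested.

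Single members rose in induced 3T3. Zfp658, a KRAB gene whose human ortholog regulates zinc homeostasis, was at 38.8 and 33.2 CPM in induced and 18.3 and 20.7 CPM in normal cells (log2 fold change 0.89, SE 0.08, edgeR adjusted p = 4.02e-12). Zfp637 was at 32.1 and 30.5 CPM in induced and 18.2 and 18.2 CPM in normal cells (0.78, SE 0.08, edgeR adjusted p = 7.43e-11). Zfp217, an oncogene whose protein binds the CoREST and LSD1 corepressor complex, was at 78.5 and 68.7 CPM in induced and 49.5 and 44.8 CPM in normal cells (0.65, SE 0.06, edgeR adjusted p = 5.93e-12). Zfp281, a factor of embryonic stem cells, was at 227 and 230 CPM in induced and 166 and 172 CPM in normal cells (0.43, SE 0.04, edgeR adjusted p = 1.18e-12). The groups did not overlap in any of these 4, and each kept its call whichever library was left out.

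Other members fell there. Zfp395 was at 75.8 and 67.1 CPM in induced and 119 and 112 CPM in normal cells (log2 fold change -0.69, SE 0.05, edgeR adjusted p = 7.46e-15). Zfp516 was at 115 and 107 CPM in induced and 169 and 173 CPM in normal cells (-0.62, SE 0.04, edgeR adjusted p = 9.51e-16). Zfp142, the member with the most fingers, was at 58.9 and 56.4 CPM in induced and 90.1 and 84.6 CPM in normal cells (-0.60, SE 0.05, edgeR adjusted p = 1.51e-12), and its exons overlap those of Plcd4. The KRAB gene Zfp655 was at 94.5 and 107 CPM in induced and 144 and 145 CPM in normal cells (-0.53, SE 0.05, edgeR adjusted p = 1.98e-12). In each, both induced libraries were below both normal ones.

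Calls in both lines ran in each combination of directions. They covered 34 members, of which 15 were higher in the knockout and in induced 3T3, 11 higher in the knockout and lower in induced 3T3, 4 lower in both and 4 lower in the knockout and higher in induced 3T3. As shares of the 244 members these are 6.15%, 4.51%, 1.64% and 1.64%, against 2.60%, 3.07%, 3.17% and 4.77% of the 11038 genes tested in both lines. More members than genes at large were called higher in the knockout to begin with (28.3% against 15.6%), so these shares are not a result about shared direction. Zfp54 was among those higher in both, at 7.64 and 8.48 CPM in induced and 5.43 and 5.10 CPM in normal 3T3 (log2 fold change 0.61, SE 0.15, edgeR adjusted p = 0.000743), a call that DESeq2 did not make (0.62). Zfp516 and Zfp106 were lower in both, and the knockout call of Zfp106 was lost after the correction for level (-0.17). Zfp770 was higher in the knockout, at 29.0 and 28.5 CPM against 18.1 and 18.1 CPM with the empty vector (0.67, SE 0.13), and lower in induced 3T3, at 17.2 and 20.3 CPM against 25.1 and 27.9 CPM in normal cells (-0.51, SE 0.09, edgeR adjusted p = 8.2e-06). Zfp568 was the reverse, lower in the knockout and higher in induced 3T3, at 43.1 and 38.8 CPM against 29.7 and 29.1 CPM in normal cells (0.48, SE 0.07, edgeR adjusted p = 3.35e-07). The difference between the lines was not tested, and each line has a gene table of its own.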

How the data were processed

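Gene counts, whole numbers deposited by the authors as 1 file per library, were used as they stand. Per the labels' protocols, a low-input kit for stranded total RNA gave the libraries, which were read in pairs. The tools named, per the submitters' processing notes, are HTSeq 0.6.1 and STAR 2.5.0a, with GRCm38. Whether strand was used in counting is not given in the sources used here. Rows for unassigned reads were left out. Reads outside genes made up 22.3% and 25.8% of the rows in the knockout and 21.3% and 21.6% with the empty vector, and ambiguous reads 2.44%, 2.20%, 2.28% and 2.31% in the same order. The row for alignments at several places held 0 in these 4 files.

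Members, lists and the genes named were chosen with earlier results of these data known. Symbols, positions, exon overlaps and coding sequences came from GENCODE M21. The KRAB box and fingers were read from translated coding sequences, not from RefSeq proteins as planned, and GC content is that of the longest transcript. Each line was fitted apart with edgeR 4.0.16 in R 4.3.3 (filterByExpr, TMM, robust quasi-likelihood test), with p-values adjusted by Benjamini-Hochberg over 11941 genes in Scid.adh and 18185 in 3T3 and calls at an adjusted p under 0.05. Libraries of a group varied by a biological coefficient of 5.94% in Scid.adh and 2.41% in 3T3. CPM are TMM-scaled except in the rule for members, and 2 libraries per group limit the precision. Log2 fold changes are knockout minus empty vector and induced minus normal. Counts were simulated with 50 genes each planted at 1.25, 1.5, 2 and 4-fold. In a run of 11527 Scid.adh genes the test found 22.0%, 56.0%, 76.0% and 94.0% of them, with 23 false calls. Among 17785 3T3 genes it found 50.0%, 60.0%, 70.0% and 90.0%, with 2 false calls. No other gene was changed there, whereas 31.5% of tested genes were called in the Scid.adh data and 36.8% in 3T3. The shares found and the false calls therefore need not hold for the data.

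Genes were named by a rule: the 6 largest called rises and falls per line without overlap between libraries, members with a textbook role, the extremes of each cluster of at least 4, the members of highest CPM per kb, those next to the level rule, and those called in both lines. Alternatives were other scalings and filters, DESeq2 1.42.0, a joint fit, corrections for level and GC content, a test against 1.5-fold, each library left out, a block for the replicate number, and other cutoffs for members, clusters, classes and the KRAB box. The corrections for level and GC content took out the fitted trend of log2 fold change with each, and not a trend within each library. Python 3.11.15, with matplotlib 3.10.9, NumPy 2.4.6 and pandas 2.3.3, made the tables and figures.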

Additional observations from a re-analysis of the deposited data

How the results depend on the processing

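Against 78 members called in the knockout, 34 were called with DESeq2 and 3 in a test against 1.5-fold, and 52 to 101 with each library left out. The median log2 fold change of members (0.23) was 0.31 with upper-quartile factors, that of clustered members (0.27) was 0.35, and that of KRAB members (0.32) was 0.40, 0.26 without a filter and 0.25 after the GC correction. Against 7 cofactors called, there were 13 in a joint fit, 11 after the level correction, 0 at 1.5-fold and 7 to 15 with each library left out. In 3T3, against 87 members called, 34 were called with DESeq2, 2 at 1.5-fold and 52 to 87 with each library left out. Against 17 cofactors there were 8, 0 and 5 to 19 likewise. After the GC correction the 3T3 medians of members (0.01), KRAB members (0.02) and clustered members (0.05) were 0.0555, 0.10 and 0.11. With each library left out, those of members ran -0.0186 to 0.0224 and of KRAB members -0.0342 to 0.0476. The cause of these shifts was not tested. Upper-quartile factors moved the median of all tested Scid.adh genes to 0.08 and gave 100 members higher and 4 lower. Without a filter it was 0.14. The members above their class median numbered 165 to 177 in the knockout and 108 to 129 in 3T3 over the settings run.

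Over all tested genes, same-numbered libraries hardly deviated together: the correlation of their differences was 0.00147 in Scid.adh and 0.0124 in 3T3. A batch shared in part of the genes could be missed this way, and the labels do not say what the numbers stand for. With the replicate block, 94 members were called in the knockout (83 higher, 11 lower) and 101 in 3T3 (50 higher, 51 lower). A library left out leaves its group with 1, which was assumed to vary like the rest. Of the named members called, 14 of 46 in the knockout and 26 of 58 in 3T3 kept their call under every setting except the test against 1.5-fold. No named member called in a line changed sign under any setting run. 2 libraries per group limit what could be called.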
